A study of Mus musculus with 4 samples.

Results

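Chromatin accessibility was examined at 10 genes that mark chondrocytes, the cells of cartilage, in osteoblasts of WT mice and of mice bred to lose the TET enzymes. The genes were *Sox9*, *Sox5* and *Sox6* (transcription factors), *Acan*, *Col2a1*, *Col9a1*, *Col10a1*, *Comp* and *Matn1* (cartilage matrix) and *Ihh* (a secreted ligand), out of 21938 protein-coding genes of GENCODE M21. Accessible regions were taken where they overlapped one of these genes or the 25 kb on either side of it, which gave 333 of the 255864 regions of the count table. Of these, 235 lay at the transcription factors, 90 at the matrix genes and 8 at *Ihh*.

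The data were ATAC-seq libraries, in which a transposase cuts and tags open DNA so that the number of reads over a site reports how accessible it is. Primary osteoblasts, bone-forming cells taken from the calvarial bone per the study's methods, came from C57BL/6 mice at the age of 3 days. WT mice were compared with TCKO mice, which carried Prx1-Cre together with floxed alleles of every TET gene, namely Tet1fl/fl, Tet2fl/fl and Tet3fl/fl. The Prx1 promoter drives Cre in mesenchyme of the limb buds and of part of the skull, so cells of other origin in the same culture would keep their *Tet* genes. The labels give 2 samples for each genotype, while one protocol text speaks of 3 repeats, and whether a sample came from 1 animal or from several pooled animals was not stated. The replicates had been merged into a single count column for each genotype. The spread between replicates could therefore not be measured, no test of genotype was made, and every difference below compares the merged WT column with the merged TCKO column.

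SOX9 is the regulator that commits mesenchymal cells to cartilage and switches on the matrix genes. SOX5 and SOX6 bind beside it and strengthen its action on enhancers of genes such as *Col2a1* and *Acan*, which encode the fibrillar collagen and the large proteoglycan of cartilage. Skeletal progenitors that become osteoblasts turn this program down, and TET enzymes oxidise 5-methylcytosine, which occurs mainly at CpG dinucleotides.

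Counts over all regions summed to 56898657 in WT and 34608167 in TCKO. The TCKO counts were scaled to the WT total, which is a factor of 1.64, and 1 count was added before log2 ratios of TCKO over WT were taken. Each interval given with a ratio comes from the 95% Wilson interval of the TCKO part of its counts. It covers counting error only and not the spread between replicates. It also treats every count as independent. Reads that carry no molecular identifier can stem from the same molecule, so it may be too narrow even for counting error. Another factor shifts all ratios together. With the depth read from the background of the peak caller the median of the 19921 protein-coding loci with a region moved by -0.61. With no scaling it moved by -0.72. Ratios of loci are thus best read against the median of all loci (-0.020). Those of single regions are best read against the median of all regions (0.06). The loci of the deleted genes had ratios of -0.17 for *Tet1*, -0.19 for *Tet2* and -0.06 for *Tet3*, and accessibility around a gene does not check its deletion.

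The osteoblast label was compared with lists of marker genes. A region centred within 1 kb of a protein-coding transcript start was found for 71.9% of all genes. It was found for 10 of 11 osteoblast genes, 6 of the 10 chondrocyte genes, 6 of 8 macrophage or osteoclast genes, 4 of 6 endothelial genes, 7 of 9 adipocyte genes and 1 of 8 skeletal muscle genes. Only the muscle list thus stood far below the share of all genes. Start regions were missing for the leukocyte genes *Ptprc* and *Itgam* and the endothelial genes *Emcn* and *Vwf*, but the macrophage gene *Lyz2* (333 WT counts), the osteoclast gene *Acp5* (248) and the endothelial genes *Kdr* (399) and *Tek* (339) had one, beside 230 for the osteoblast gene *Alpl* and 111 for *Ibsp*. Start regions therefore did not set the osteoblast label apart from these cell types. Summed over a list, osteoblast loci had 1142 CPM, that is counts scaled to the column total, in WT and 1094 in TCKO, endothelial loci 303 and 349, skeletal muscle loci 219 and 253, macrophage or osteoclast loci 521 and 518, and adipocyte loci 385 and 389. The median log2 ratio of a locus was 0.32 for the endothelial list, 0.22 for the muscle list, 0.06 for the adipocyte list, 0.04 for the macrophage or osteoclast list and -0.07 for the osteoblast list. The interval lay above 0 at 5 of 6 endothelial loci, with *Vwf* the exception, and at 5 of 8 muscle loci, beside 28.0% of all protein-coding loci. The muscle genes *Myf5* and *Myf6*, both among those 5, share 1 window, and counted once the muscle median was 0.15. The part of these cells in the results below was not tested. In a mixed culture, fewer cells of a type and less accessible DNA per cell cannot be told apart.

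The sequences on which the results turn are given first, read on the plus strand of GRCm38, with CpG dinucleotides in capitals because CpG is the site at which TET enzymes act. The first pair shows the regions with the lowest ratio among the matrix genes and among the transcription factors, an intron of *Acan* (72 counts in WT, 8 in TCKO) and an intron of *Sox6* (199 and 24).
Acan intron, chr7:79056635-79056781: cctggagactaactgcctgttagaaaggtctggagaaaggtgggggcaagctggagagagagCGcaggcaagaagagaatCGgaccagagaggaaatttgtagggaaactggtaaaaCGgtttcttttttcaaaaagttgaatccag
Sox6 intron, chr7:115754329-115754578: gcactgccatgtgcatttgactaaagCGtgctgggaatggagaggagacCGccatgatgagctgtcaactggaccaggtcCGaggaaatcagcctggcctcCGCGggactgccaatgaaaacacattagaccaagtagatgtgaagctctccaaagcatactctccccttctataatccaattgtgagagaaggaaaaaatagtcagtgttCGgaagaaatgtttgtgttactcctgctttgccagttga
They held 3 and 6 CpG. The second pair shows the highest ratio in each class among regions with at least 50 counts in one genotype, the central 300 bases of another intron region of *Sox6* (31 and 104) and a region beyond the end of *Col9a1* (33 and 94).
Sox6 intron, chr7:116013959-116014258: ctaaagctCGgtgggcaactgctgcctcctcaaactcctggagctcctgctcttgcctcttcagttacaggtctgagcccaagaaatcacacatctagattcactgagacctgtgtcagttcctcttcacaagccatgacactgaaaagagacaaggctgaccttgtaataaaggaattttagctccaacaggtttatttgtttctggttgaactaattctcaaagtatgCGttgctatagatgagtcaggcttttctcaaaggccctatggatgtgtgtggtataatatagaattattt
Col9a1 flank, chr1:24266682-24266918: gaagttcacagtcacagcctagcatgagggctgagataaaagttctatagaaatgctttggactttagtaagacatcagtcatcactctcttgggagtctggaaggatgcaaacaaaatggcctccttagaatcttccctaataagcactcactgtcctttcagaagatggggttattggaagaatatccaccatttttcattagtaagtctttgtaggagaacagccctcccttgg
These held 2 and 0 CpG. The third pair shows the central 300 bases of the most accessible region of *Col2a1*, in its first 3 kb, and of the region at the start of *Acan*, which differed little between the genotypes (146 and 88 counts) although it lies close to the *Acan* intron region above.
Col2a1 intron, chr15:98001570-98001869: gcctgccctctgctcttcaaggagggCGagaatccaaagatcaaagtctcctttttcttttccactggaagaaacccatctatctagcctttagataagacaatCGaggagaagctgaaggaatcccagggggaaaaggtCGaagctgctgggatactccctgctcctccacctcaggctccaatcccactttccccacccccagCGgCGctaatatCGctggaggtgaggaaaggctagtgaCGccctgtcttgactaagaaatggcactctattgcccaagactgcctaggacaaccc
Acan start, chr7:79053003-79053302: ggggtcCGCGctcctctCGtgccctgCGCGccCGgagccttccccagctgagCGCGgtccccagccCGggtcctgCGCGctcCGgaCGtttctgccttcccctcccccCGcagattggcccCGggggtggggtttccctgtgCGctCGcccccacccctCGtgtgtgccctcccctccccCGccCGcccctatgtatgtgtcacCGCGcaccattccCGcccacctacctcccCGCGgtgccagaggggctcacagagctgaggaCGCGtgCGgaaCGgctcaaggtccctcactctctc
The *Col2a1* sequence held 7 CpG and the *Acan* start 29, the densest of those shown.

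The level of accessibility differed more between the genes than between the genotypes. In CPM per kb of window, *Col2a1* stood highest with 1.37 in WT and 1.21 in TCKO, followed by *Comp* with 1.17 and 1.13 and *Sox9* with 0.906 and 0.971. *Sox5* stood lowest with 0.288 and 0.318, but its window spans 1004 kb, against 55.5 kb for *Sox9*. Its summed WT counts were higher, 16453 against 2862, so the level per kb compares windows of unlike length. The 10 loci had the same order in both genotypes. In that order the exact Poisson intervals in WT overlapped between *Col9a1* (0.480) and *Sox6* (0.473), and among *Ihh* (0.343), *Matn1* (0.332) and *Acan* (0.313), so those neighbours were not separated even by counting error. The level of *Col10a1* (0.612 and 0.528) was almost wholly that of another gene, as described below.

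**Figure D1:**
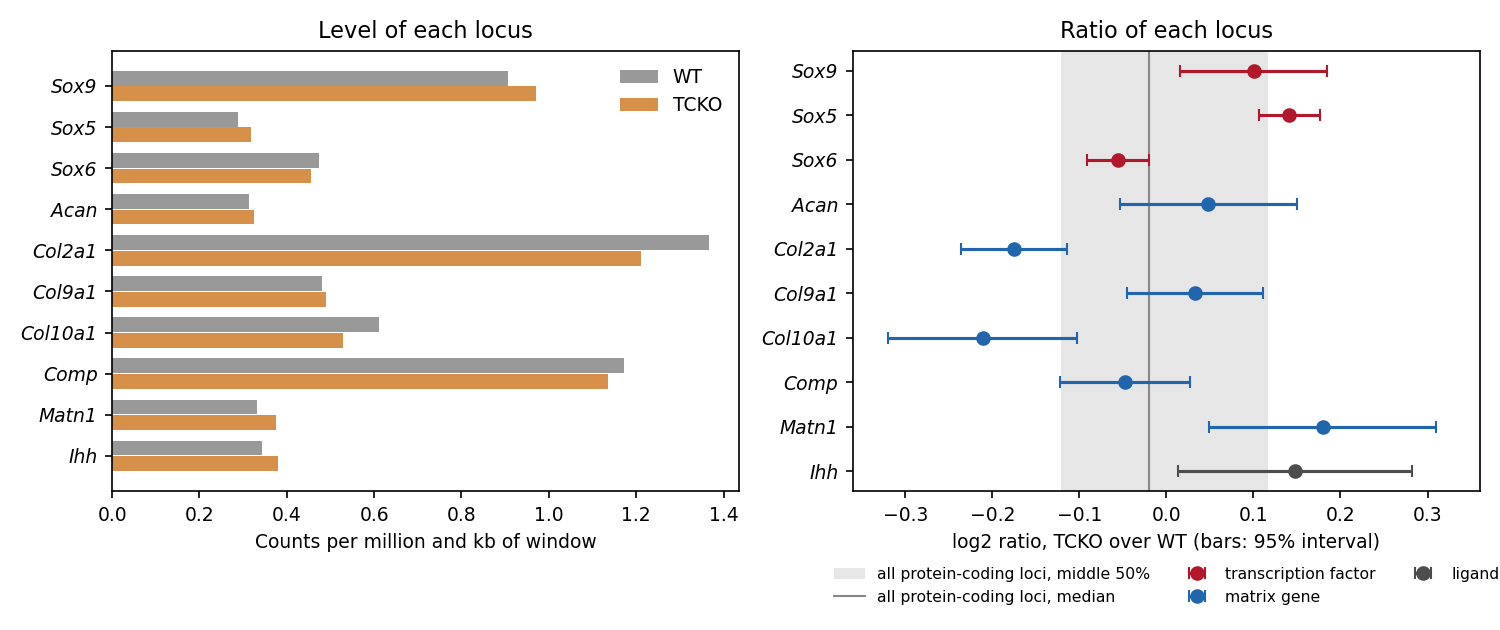
Accessibility of the 10 chondrocyte gene loci, each the gene and 25 kb on either side. Left, CPM per kb of window in the merged WT (grey) and TCKO (orange) columns; right, log2 ratio of TCKO over WT with its 95% interval (counting error), coloured by class, with the median (line) and the middle 50% (band) of 19921 protein-coding loci. *Col2a1* had the highest level, and *Col2a1* and *Col10a1* had the lowest ratios, -0.17 and -0.21.

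At the level of whole loci the differences were small. The median log2 ratio of the 10 loci was 0.04, against -0.020 for all protein-coding loci, of which the middle 50% ran from -0.12 to 0.12. The interval lay above 0 for 4 of the 10 loci (*Sox9*, *Sox5*, *Matn1* and *Ihh*) and below 0 for 3 (*Sox6*, *Col2a1* and *Col10a1*). Among all loci these shares were 28.0% and 35.7%, so an interval that leaves out 0 was common at this depth. With no scaling, or with the depth from the peak caller's background, the ratios of all 10 loci were below 0. The median of the 10 loci lay above that of all loci under each single factor, which shifts both alike. It also did within 25 kb of the start only (0.091 against -0.027). It did not after loess (-0.037 against 0.019), for the gene with 2 kb upstream (-0.041 against -0.033) or with 100 kb on either side (-0.028 against -0.018). Pooled by class, the transcription factors had 35955 WT and 22642 TCKO counts and a log2 ratio of 0.05 (0.03 to 0.07). The matrix genes had 18599 and 10827 counts and a ratio of -0.06 (-0.10 to -0.03). Of the matrix counts, 3178 and 1696 lay in 4 regions at starts of other genes, with a ratio of -0.19. The transcription factors had 1 such region, with 1185 and 761 counts and a ratio of 0.08. The difference, transcription factors minus matrix genes, was 0.11 (0.07 to 0.16), and 0.09 without regions at starts of other genes. A common factor cancels in this difference, so it was the same for every scaling by a single factor. It rested on 1 gene. Without *Sox5* it was 0.03 (-0.02 to 0.08), whereas leaving out any other gene in turn, a check added after the data were seen, gave values between 0.06 without *Col2a1* and 0.20 without *Sox6*, all with intervals above 0.

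The difference varied with the place of the regions. In exons and introns whose regions are not centred within 1 kb of a protein-coding transcript start, the difference between the classes was 0.23 (0.16 to 0.30), from a ratio of 0.08 for the 208 regions of the transcription factors and -0.15 for the 29 regions of the matrix genes. Without the *Col2a1* intron region, the strongest of those 29, it was 0.14 (0.07 to 0.22). At the starts of the genes themselves it was -0.03 (-0.17 to 0.11), with ratios of -0.10 and -0.07, so no difference between the classes was detectable there. In the flanks it was -0.13 (-0.23 to -0.03), but this rested on 1 *Sox6* region (1685 and 864 counts), without which it was 0.02 (-0.10 to 0.15), and the median ratio of a flank region was 0.23 for the transcription factors and -0.02 for the matrix genes. Leaving out the strongest regions was chosen after the data were seen. These regions were few for some classes, with 8 starts and 18 flank regions for the transcription factors and 5 starts for the matrix genes.

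**Figure D2:**
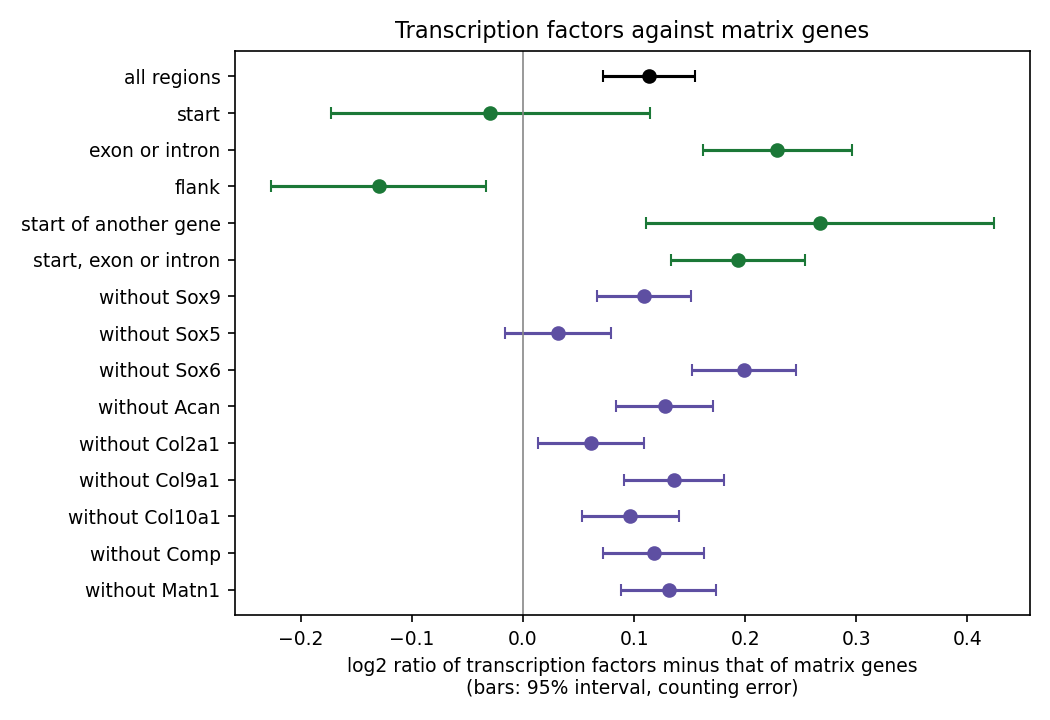
Log2 ratio of the transcription factor regions minus that of the matrix gene regions, with its 95% interval from counting error, for all regions (black), by the place of the regions (green) and with 1 gene left out in turn (purple). The difference over all regions was 0.11, it was 0.23 in exons and introns and -0.13 in the flanks (0.02 without 1 *Sox6* region, not drawn), and without *Sox5* its interval included 0.

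Single regions moved further than whole loci. Of the 333 regions, 22 (6.61%) were lower in TCKO by 2-fold or more and 33 (9.91%) were higher by 2-fold or more, beside 4.51% and 12.3% of all regions. The balance of lower to higher regions followed the scaling, as it did over all regions. TMM factors gave 25 lower and 29 higher (5.52% and 10.9% of all regions), the depth read from the peak caller's background 78 and 11 (19.9% and 3.91%), and no scaling 109 and 9 (25.6% and 3.17%). The transcription factors had 16 lower and 28 higher regions out of 235, and the matrix genes 6 lower and 5 higher out of 90. None of the 8 regions of *Ihh* passed either cutoff. The lower regions held a median of 77 counts in WT and 18 in TCKO, and the higher regions 38 and 57, beside 81 and 55 over all 333 regions. In WT the lower regions were thus of ordinary strength. An interval wholly past the cutoff was found for 3 lower and 11 higher regions, against 0.654% and 3.82% of all regions. The cutoff fell between near neighbours, as in 2 upstream regions of *Col2a1*, of which one (168 and 50 counts) had a ratio of -1.02 and the other (50 and 15 counts) -0.99.

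**Figure D3:**
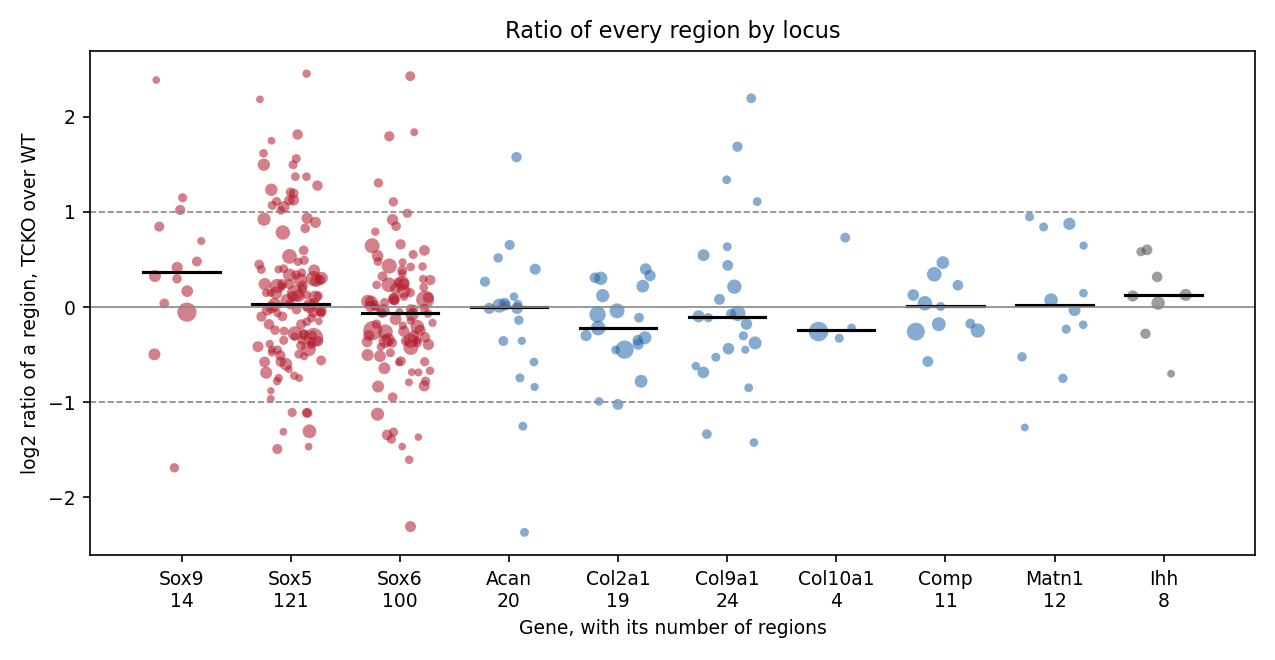
Log2 ratio of TCKO over WT of each of the 333 regions, by locus, with larger points for more counts, the median of each locus as a black bar, and dashed lines at a fold of 2. Ratios ran from -2.37 at *Acan* to 2.45 at *Sox5*. Strong regions spread less, with -0.05 at *Sox9*, -0.32 at *Sox5*, -0.25 at *Sox6*, -0.45 at *Col2a1* and 0.08 at the start of *1110004F10Rik*.

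*Sox9* (ENSMUSG00000000567, GRCm38 chromosome 11, 112782224 to 112787760, plus strand) is the regulator on which the cartilage program depends. Its window held 14 regions with 2862 WT and 1866 TCKO counts, a log2 ratio of 0.10 (0.02 to 0.18). The region at its start (112781266 to 112782611) took 1620 and 950 of these counts, a ratio of -0.05 (-0.17 to 0.06), and thus differed by less than counting error. Every one of the 5 regions that follow it, up to 6.44 kb after the start, had a ratio above 0, from 0.33 to 1.02. Among these, the region 1.74 kb after the start in an exon held 70 WT and 87 TCKO counts, a ratio of 1.02, and the one at 3.00 kb held 70 and 77, a ratio of 0.85. Both had a summit only in the TCKO peak list. Farther out the regions diverged. At 16.8 kb after the start an intergenic region (112798909 to 112799150) held 87 WT and 16 TCKO counts, a ratio of -1.69 (-2.49 to -0.97), between neighbours at 12.7 kb (8 and 28 counts) and 18.6 kb (38 and 52 counts) that were higher in TCKO. The region at 18.6 kb was the only one at *Sox9* with a match to the SOX consensus. Without the start region, a setting added after the data were seen, the ratio of the locus was 0.28.

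*Sox5* (ENSMUSG00000041540, chromosome 6, 143828425 to 144781977, minus strand) encodes a partner of SOX9 and spans 954 kb, so that 121 regions fell in its window, 116 of them in introns. It held 16453 WT and 11038 TCKO counts, a ratio of 0.14 (0.11 to 0.18), while the median over its regions was 0.03. Of its 121 regions, 20 lay past the higher cutoff (16.5%) and 7 past the lower one (5.79%), beside 12.3% and 4.51% of all regions. The balance thus had the direction of all regions. The 20 higher regions held 1108 WT and 1711 TCKO counts together, and the 7 lower regions 941 and 234. The most accessible region (144074705 to 144075579, in an intron) went against the locus, with 1697 and 827 counts and a ratio of -0.32 (-0.44 to -0.20). So did the intron region at 144204036 to 144204766, which held 501 WT and 123 TCKO counts, a ratio of -1.30 (-1.59 to -1.02), and had the most WT counts of all lower regions of the 10 genes. The region at the start of a shorter transcript nearby (144209230 to 144209767) held 447 and 274 counts, a ratio of 0.01, and so did not share the difference. The lowest ratio at *Sox5* was found in another intron (144278476 to 144278920), with 122 and 26 counts (-1.49, -2.12 to -0.91). Higher in TCKO were intron regions at 143967912 to 143968354 with 141 and 243 counts (1.496, 1.20 to 1.80) and at 144186096 to 144186300 with 54 and 117 counts (1.81, 1.37 to 2.30), both with summits in both peak lists.

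*Sox6* (ENSMUSG00000051910, chromosome 7, 115470872 to 116038796, minus strand), which encodes the other partner of SOX9, held nearly the same number of counts as *Sox5*, 16640 in WT and 9738 in TCKO over 100 regions. Its ratio was -0.06 (-0.09 to -0.02). Of its 100 regions, 8 lay past the lower cutoff and 5 past the higher one, beside 4.51% and 12.3% of all regions. This balance was opposite to that of *Sox5*, and such balances follow the scaling as given above. The 8 lower regions held 1013 WT and 229 TCKO counts, and the 5 higher regions 178 and 361. The lower regions included 4 in an intron stretch 345.1 to 367.3 kb after the start, with 392 and 109 counts (-1.12), 27 and 6 (-1.37), 79 and 18 (-1.39) and 160 and 38 (-1.34). The *Sox6* intron region printed above, with 199 and 24 counts, had the lowest ratio of all regions but 1, -2.31 (-2.94 to -1.73). Another intron region (115888237 to 115888380) held 52 and 10 counts, a ratio of -1.60. The region of *Sox6* with most counts, past the end of the gene (115452995 to 115453915), held 1685 and 864 counts, a ratio of -0.25 (-0.36 to -0.13). A start region of an internal transcript (115825356 to 115825971) held 622 and 282 counts, a ratio of -0.42 (-0.63 to -0.22). On the other side, the intron region at 116013911 to 116014305, of which the centre is printed above, held 31 WT and 104 TCKO counts, a ratio of 2.43 (1.89 to 3.04), and lay beside a small region that was also higher (14 and 32 counts, 1.84). An intron region at 115522895 to 115523231 held 50 and 107 counts, a ratio of 1.79 (1.33 to 2.30), and like the former it had a summit only in the TCKO list. Close to the first transcript start of *Sox6* lies that of *1110004F10Rik*, whose start region took 1185 and 761 counts. Without it the ratio of *Sox6* was -0.07. When only the 25 kb on either side of the gene start were summed, the ratio of *Sox6* turned to 0.09 (0.01 to 0.17).

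*Col2a1* (ENSMUSG00000022483, chromosome 15, 97975602 to 98004695, minus strand), the main collagen of cartilage, had the lowest ratio of the matrix genes whose own regions set it. Its 19 regions held 6151 WT and 3314 TCKO counts, a ratio of -0.17 (-0.24 to -0.11). A ratio below 0 was found at 13 of them (68.4%), beside 45.4% of all regions. The most accessible region lay in an intron 2.98 kb after the start (98001249 to 98002189) and held 1452 WT and 648 TCKO counts, a ratio of -0.45 (-0.58 to -0.31). The start region held 554 and 328 counts, a ratio of -0.04 (-0.24 to 0.16), and so differed by less than counting error. Without the intron region the ratio of the locus was -0.10. Before the start, 7 of the 8 regions had ratios below 0, the lowest at -24.4 kb with 168 and 50 counts (-1.02). A region shortly past the end of the gene held 345 and 122 counts, a ratio of -0.78 (-1.08 to -0.49), while its neighbour nearer the end held 154 and 118 (0.33). The intron region 14.4 kb after the start was higher as well, with 305 and 229 counts (0.30, 0.06 to 0.55). Of the 19 regions, 13 had a summit in both peak lists, 6 in the WT list only and 0 in the TCKO list only, beside 56.8%, 33.0% and 10.2% of all regions.

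*Acan* (ENSMUSG00000030607, chromosome 7, 79053483 to 79115099, plus strand), which encodes the proteoglycan aggrecan, held 1989 WT and 1251 TCKO counts over 20 regions, a ratio of 0.05 (-0.05 to 0.15) that was not separable from 0. This sum hid opposite parts. The gene with 2 kb upstream held 1092 and 578 counts, a ratio of -0.20 (-0.35 to -0.06). The start region was level at -0.01 (-0.39 to 0.37), yet in the intron that follows, the regions 1.59 kb and 3.22 kb after the start held 64 and 16 counts (-1.25) and 72 and 8 counts (-2.37, -3.48 to -1.42), the latter 5.16-fold lower and the lowest of all 333 regions. The region with most counts, in an intron (79080662 to 79081205), held 410 and 252, a ratio of 0.02. A region at -21.7 kb held 60 WT and 110 TCKO counts, a ratio of 1.58 (1.14 to 2.04). Of the 20 regions of *Acan*, 13 had a summit in the WT list only and 0 in the TCKO list only, beside 33.0% and 10.2% of all regions.

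*Col9a1* (ENSMUSG00000026147, chromosome 1, 24177610 to 24252684, plus strand), a collagen on the surface of cartilage fibrils, also had opposite parts. The gene with 2 kb upstream held 2663 WT and 1463 TCKO counts, a ratio of -0.15 (-0.24 to -0.05), but the whole window held 3414 and 2125, a ratio of 0.03 (-0.04 to 0.11). A cluster of 3 regions 89.2 to 90.2 kb after the start, inside a neighbouring gene, was higher in TCKO, with 33 and 94, 28 and 44, and 54 and 107 counts, and ratios of 2.19, 1.34 and 1.69. Inside the gene, too, some intron regions were higher, with 33 and 44 (1.11), 42 and 40 (0.63) and 172 and 153 counts (0.55). The start region with most counts, at the start of a shorter transcript, held 637 and 370 counts, a ratio of -0.07 (-0.25 to 0.12). The lower regions were at -1.46 kb (101 and 24 counts, -1.33) and at 11.4 kb in an intron (59 and 13 counts, -1.42), and the latter contained a match to the SOX consensus, shown in capitals:
Col9a1 intron, chr1:24188892-24189040: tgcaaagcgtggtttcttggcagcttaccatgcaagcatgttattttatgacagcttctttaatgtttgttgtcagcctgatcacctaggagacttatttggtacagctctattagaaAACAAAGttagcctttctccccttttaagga

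*Comp* (ENSMUSG00000031849, chromosome 8, 70373558 to 70382066, plus strand), a glycoprotein that links cartilage collagens, held 3904 WT and 2298 TCKO counts over 11 regions, a ratio of -0.05 (-0.12 to 0.03). Its most accessible region, at -1.33 kb, held 1266 and 644 counts, a ratio of -0.26 (-0.39 to -0.12). A neighbour at -2.83 kb held 147 and 60 counts, a ratio of -0.57. Past the end of the gene, regions at 10.01 and 16.3 kb after the start went the other way, with 449 and 347 counts (0.34) and 241 and 203 counts (0.47). For the gene with 2 kb upstream the ratio was -0.24 (-0.36 to -0.12). No region was centred within 1 kb of its start.

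*Matn1* (ENSMUSG00000040533, chromosome 4, 130944385 to 130955475, plus strand), a matrix protein of cartilage other than articular cartilage, was the only matrix gene whose interval lay above 0. It held 1154 WT and 795 TCKO counts over 12 regions, a ratio of 0.18 (0.05 to 0.31), and the gene with 2 kb upstream held 244 and 220, a ratio of 0.57 (0.31 to 0.83). The latter sum came from an intron region 3.06 kb after the start with 168 and 188 counts (0.88, 0.58 to 1.18) and another with 76 and 32 (-0.52), which went opposite ways. The region with most counts, 16.0 kb after the start, held 350 and 224, a ratio of 0.07. No region was centred within 1 kb of its start. The median over its regions was 0.02, with 6 of 12 below 0, beside 0.06 and 45.4% over all regions.

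*Col10a1* (ENSMUSG00000039462, chromosome 10, 34389981 to 34397085, plus strand), the collagen of hypertrophic chondrocytes, had no accessible region on the gene or in the 2 kb upstream. Its window held 4 regions with 1987 WT and 1044 TCKO counts, but 91.3% of the WT counts came from the start region of the neighbour *Nt5dc1* (1815 and 924). The window ratio of -0.21 (-0.32 to -0.10) was therefore that of *Nt5dc1*. The 3 other regions held 172 and 120 counts, a ratio of 0.20 (-0.14 to 0.53), which was not separable from 0 at this depth. The most accessible of them, at -21.7 kb, held 66 and 67 counts, a ratio of 0.73 (0.25 to 1.23).

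*Ihh* (ENSMUSG00000006538, chromosome 1, 74945315 to 74951672, minus strand), the ligand by which prehypertrophic chondrocytes pace growth and induce bone, held 1100 WT and 741 TCKO counts over 8 regions, a ratio of 0.15 (0.01 to 0.28). Its 2 intron regions held 203 and 135 counts (0.13) and 150 and 99 counts (0.12), and its most accessible region, at -13.1 kb, held 345 and 216 (0.04). No region was centred within 1 kb of its start. A summit in both peak lists was found for 6 of the 8 regions, 75% (40.9% to 92.9%), beside 56.8% of all regions.

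**Figure D4:**
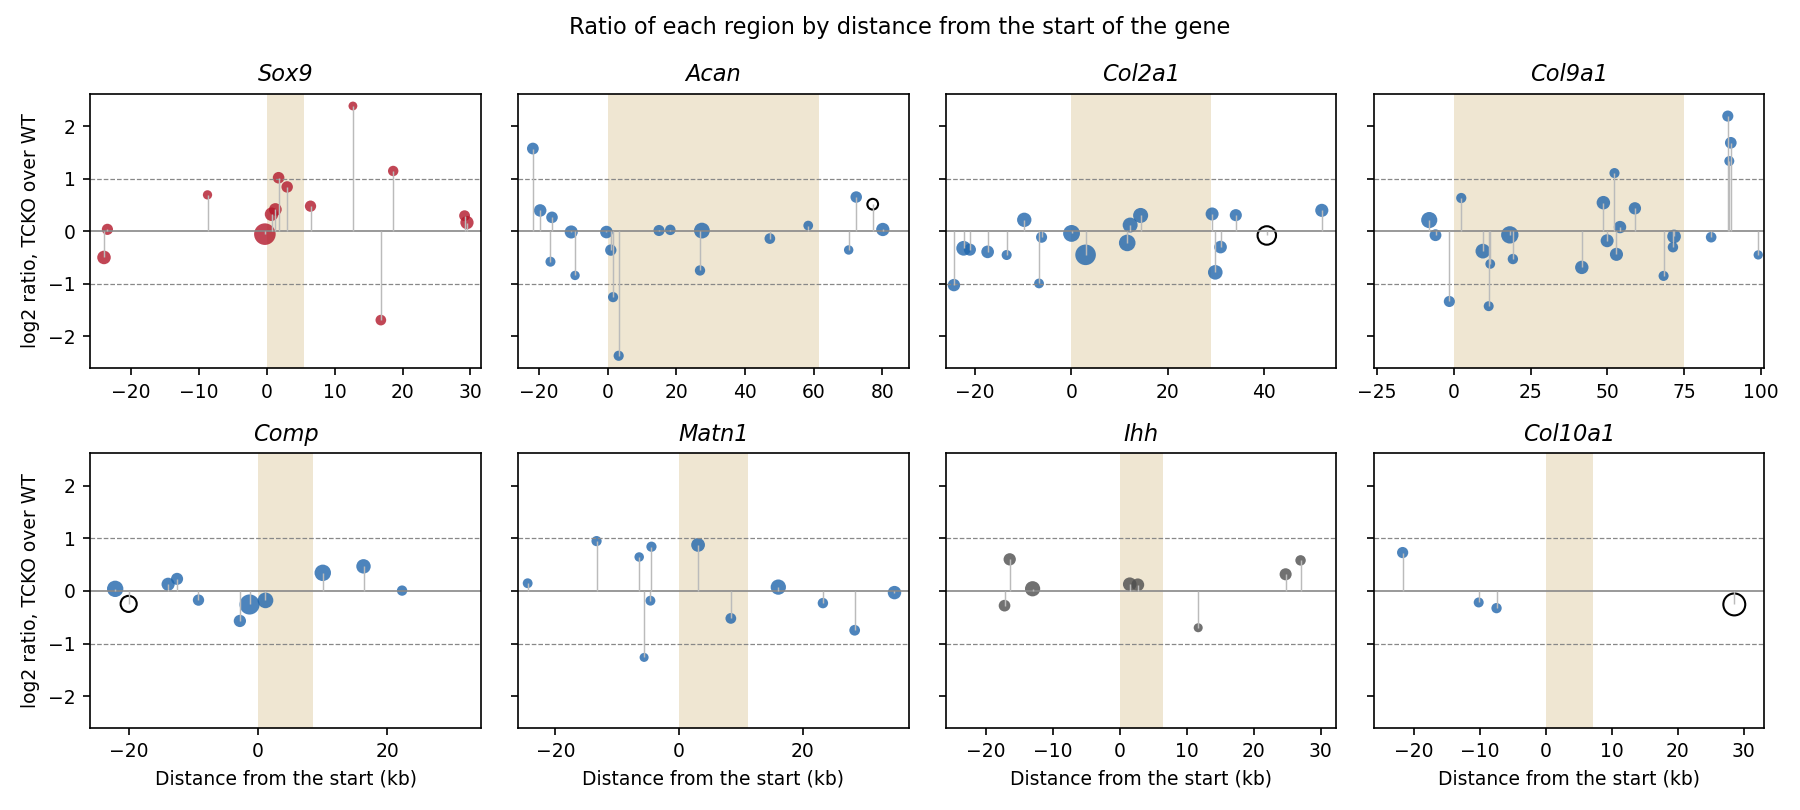
Log2 ratio of TCKO over WT of each region against its distance from the start of the gene in kb, negative before it, for 8 of the 10 genes, with the gene shaded, larger points for more counts, open circles for regions at the start of another gene and dashed lines at a fold of 2. At *Acan* and *Col9a1* regions of the gene were mostly below 0 while regions outside it reached 1.58 and 2.19, and at *Sox9* the 5 regions next after the start lay above 0.

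Peak calls were compared next. Of the 333 regions, 136 had a summit only in the WT peak list, 40.8% (35.7% to 46.2%), against 33.0% of all regions, and 24 only in the TCKO list, 7.21% (4.89% to 10.5%), against 10.2% of all regions. The share in the WT list only was 40.4% for the transcription factors and 43.3% for the matrix genes. In regions called in WT only, the median count was 56 in WT and 26 in TCKO, so TCKO reads were present there too. WT was the deeper column, and the part of depth in these calls was not tested beyond the next setting. With equal numbers of peaks taken from both lists by q, 27.0% of member regions called were in the WT list only, against 22.3% of all regions called.

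The CpG content of the regions, which had no part in how they were chosen, went with the direction. Regions at least 2-fold lower had a median of 1.98 CpG per 100 bp and those at least 2-fold higher 0.901, and the medians over all regions of the genome were 1.30 and 0.685. Of the 133 member regions with under 1 CpG per 100 bp, 1 was lower and 19 were higher. Of the 106 regions with 1 to under 2, 10 were lower and 9 higher. Of the 72 regions with 2 to under 4 CpG per 100 bp, 10 were lower and 4 higher, which is 13.9% (7.72% to 23.7%) and 5.56% (2.18% to 13.4%). Over all regions the corresponding shares were 3.44% lower and 17.8% higher in the first group, 5.58% and 9.08% in the second, and 7.53% and 6.21% in the third, so the whole table had the same direction. The median log2 ratio was 0.06 in the member regions with under 1 CpG per 100 bp, -0.02 in those with 1 to under 2 and -0.18 in those with 2 to under 4. Over all regions these medians were 0.23, 1.2e-05 and -0.10. The CpG-densest regions, with 4 or more per 100 bp, had a median of -0.05, with 1 lower and 1 higher of 22 (4.55% each). Over all regions of that density the median was -0.07 and the shares were 1.43% lower and 1.75% higher. After the trend with mean count was removed by loess, the medians of these 4 groups, in the order of rising CpG, were -0.04, -0.13, -0.20 and -0.02. Over all regions they were 0.13, -0.08, -0.15 and -0.01.

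**Figure D5:**
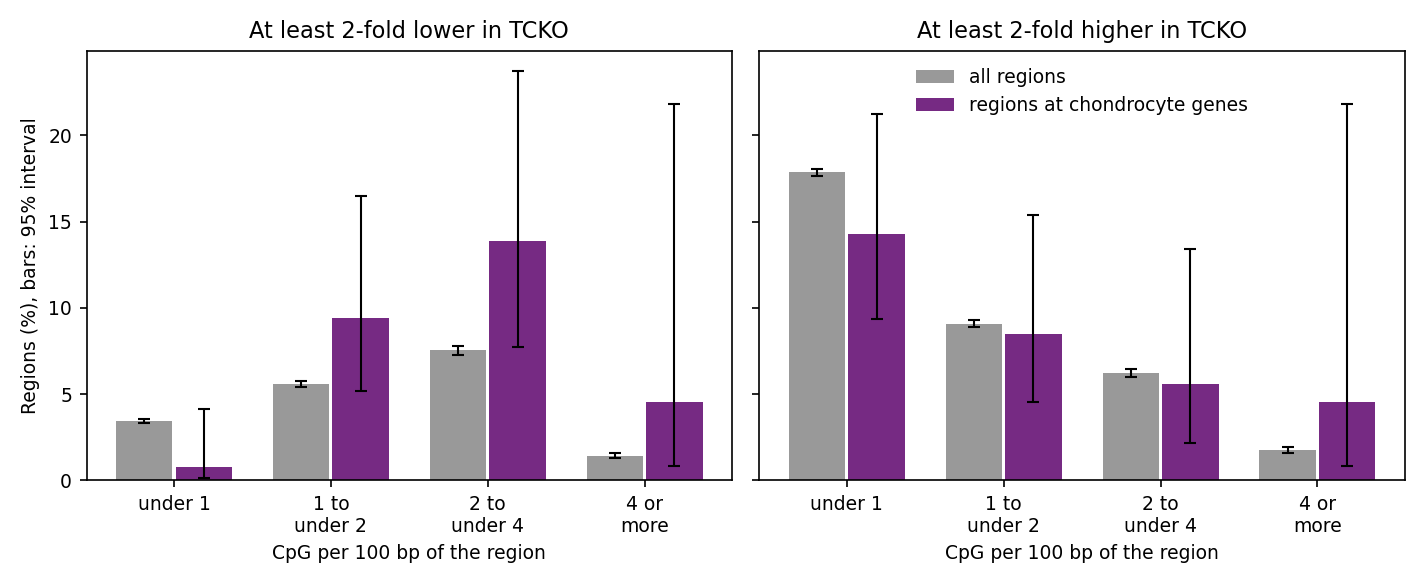
Share of regions at least 2-fold lower (left) and at least 2-fold higher (right) in TCKO, in percent, by the CpG density of the region, for all regions (grey) and the 333 regions at chondrocyte genes (purple), with 95% Wilson intervals. Among the member regions, the lower share was 0.752% under 1 CpG per 100 bp and 13.9% at 2 to under 4, and the higher share was 14.3% and 5.56%.

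Consensus motifs were looked for in the central 200 bp of each region, on either strand, for SOX proteins (AACAAAG or AACAATG), for Runt proteins such as RUNX2 (TGTGGT) and for AP-1 (TGANTCA), none of which contains another. A SOX match lay in 26 of the 333 regions, 7.81% (5.38% to 11.2%), against 6.85% of all regions, and a Runt match in 21.9% against 22.2%. Regions with a SOX match had a median log2 ratio of 0.01, and those without it -0.01, beside 0.10 and 0.06 over all regions. An AP-1 match lay in 19.5% (15.6% to 24.1%) of member regions against 23.6% of all regions. Among member regions it was found in 10 of the 33 higher regions, 30.3% (17.4% to 47.3%), and in 1 of the 22 lower regions, 4.55% (0.807% to 21.8%). Over all regions these shares were 42.8% and 7.97%. A match is a description of the sequence and not a bound site.

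Other cartilage genes, 16 of the matrix and 15 regulators and receptors, had a median log2 ratio of -0.07, with an interval below 0 at 17 and above 0 at 8 of the 31 loci, beside 35.7% and 28.0% of all loci. The 11 osteoblast loci had the same median to 2 decimals, -0.07, with 5 below and 3 above. The lowest of the other cartilage loci were *Cnmd*, an inhibitor of vessel growth in cartilage (2178 counts in WT and 974 in TCKO, -0.44), *Runx3*, a regulator of chondrocyte maturation (6540 and 3068, -0.37), and *Mef2c*, a regulator of hypertrophy (6231 and 2994, -0.34). The highest were *Snorc* (1022 and 971, 0.64), a proteoglycan of cartilage, *Barx2*, a homeobox regulator (2564 and 2121, 0.44), and *Ucma*, a secreted cartilage protein (1143 and 801, 0.20). As at the 10 genes, both directions occurred among matrix genes and among regulators.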

How the data were processed

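Per the study's methods and the submitters' processing notes, the authors aligned ATAC-seq reads with STAR 2.7.0e to GRCm38, filtered for unique and well-matched reads, pooled the libraries of a genotype and ran MACS2. Removal of duplicate or mitochondrial reads and a shift for the transposase were not stated. The authors deposited raw counts per region, with 1 merged column per genotype, and peak lists with the fold of each summit over its local background (a ratio within a library) and −log10 values of p and q. A test across genotypes was not possible, so no p-value is given. Column totals were 56898657 and 34608167 counts.

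Loci summed the regions that overlap a gene of GENCODE M21 or the 25 kb on either side. TCKO counts were scaled to the WT total, and 1 count was added. Coordinates are those of GRCm38, counted from 1. A summit inside a region made it called in that genotype. Alternatives were factors from TMM (edgeR 4.0.16) and DESeq2 1.42.0 under R 4.3.3, no scaling, the depth behind the peak caller's background, loess (statsmodels 0.14.6, span 0.3), other windows, folds, counts added and q-values. Sequences were read from the RefSeq copy of GRCm38 with pysam 0.24.0, other steps ran under Python 3.11.15 with pandas 2.3.3, scipy 1.17.1 and numpy 2.4.6, and the steps were tested on simulated data. All 10 genes were named. For each gene, the rule named the region with most counts among those nearest to its starts and the one with most counts at a start. Over all genes it named the 5 lowest and 5 highest ratios among regions that reached 50 counts in either genotype. Other regions were described after their values were seen. Of the other cartilage loci with at least 200 counts, the 3 lowest and the 3 highest were named. The genes and lists were chosen with earlier results of these data known.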

Additional observations from a re-analysis of the deposited data

How the results depend on the processing

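No paired analysis was possible because each genotype has 1 merged column, and for that reason no replicate was left out. Of 90 recomputed main values, 57 moved by less than their error or by under 1.5 times, and 33 moved further. The 57 include the class difference under each single factor, which cancels there, so these values could not move. They also include the median of the chondrocyte loci where its sign changed, with TMM (-0.035), DESeq2 (-0.024) and loess (-0.037). Of 109 recomputed locus ratios, 60 stayed within their error, 37 moved, and 12 changed sign at loci whose interval left out 0. Sign changes at *Acan*, *Col9a1* and *Comp*, whose intervals included 0, were counted as moved or within error. With TMM factors, for example, *Acan* turned to -0.027 and *Col9a1* to -0.042.

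With no scaling, and with the depth from the peak caller's background, every ratio shifted with the median of all loci given above. The medians became -0.68 and -0.57 for the 10 chondrocyte loci, -0.79 and -0.68 for the other cartilage loci, and -0.79 and -0.68 for the osteoblast loci. *Sox9* turned to -0.62 and -0.51, *Sox5* to -0.58 and -0.47, *Matn1* to -0.54 and -0.43, and *Ihh* to -0.57 and -0.46. A single factor shifts every locus and the median of all loci alike, so 6 of the 10 loci lay above that median under each of them. After loess 4 did, and with 100 kb on either side 4. Within 25 kb of the start only it was 7, and for the gene with 2 kb upstream 4 of 9. Regions past the lower cutoff numbered 109 and 78, and past the higher cutoff 9 and 11. The osteoblast median was -0.15 with TMM and -0.14 with DESeq2 factors.

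Other windows hold other regions. For the gene with 2 kb upstream the median of the chondrocyte loci was -0.041 and the class difference 0.22. Within 25 kb of the start only, the class difference was 0.18, *Sox6* turned to 0.093, and 7 regions were lower and 6 higher. With 100 kb on either side, 39 were lower and 53 higher. *Col10a1* turned to 0.20 within 25 kb of its start, without starts of other genes and without its region with most counts. Left out in turn, *Sox5*, *Sox6* and *Col2a1* gave class differences of 0.032, 0.20 and 0.061. Leaving out genes or regions was chosen after seeing the data.

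A fold of 1.5 gave 49 lower and 56 higher regions, a fold of 3 gave 4 and 11, intervals wholly past the cutoff 3 and 11, and 10 added counts left 13 lower. With equal numbers of peaks, 27.0% of member regions called were in WT only, against 22.3% of all regions called. Over whole regions the motif shares were 12.3% (SOX), 27.3% (Runt) and 24.6% (AP-1), beside 10.5%, 30.0% and 29.8% of all regions. Merged columns, 1 per genotype, limit all of this, since the spread between animals is not known.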
